A study of Homo sapiens with 24 samples.

Results

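The enzymes described here activate, inactivate or reshape steroid hormones and the hormone form of vitamin D, and 10 genes were chosen by name from the 33127 genes with a transcript in the count table: *CYP24A1*, *CYP27B1*, *HSD11B1*, *HSD11B2*, *H6PD*, *CYP3A5*, *SRD5A1*, *SRD5A3*, *HSD17B2* and *STS*. The rule names the genes and uses no measured value, but it was made with earlier results of these data known. Their 29 transcript rows were summed to 1 count per gene and library. A549 is an established human cell line from a single lung adenocarcinoma, grown here in medium with fetal bovine serum. Cells were exposed to 100 nM dexamethasone (dex), a synthetic glucocorticoid (GC), dissolved in ethanol, or to the same volume of ethanol alone (EtOH, 0.02% of the medium), and poly-A RNA was sequenced after 1 h and then every 2 h up to 11 h. Each treatment and time had 2 libraries, so there were 24 libraries in 12 groups. The labels call them biological replicates without saying that they came from separate cultures, so the p-values measure the spread between these libraries. The treatment text of the labels gives 1 h for every library, while their duration field runs from 1 to 11 h and was used.

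The hormones cortisol and calcitriol act through nuclear receptors, and cells set their local level with enzymes. In many tissues *HSD11B2* oxidizes cortisol to inactive cortisone, and *HSD11B1*, in the endoplasmic reticulum, turns cortisone back to cortisol with NADPH that *H6PD* supplies. *CYP27B1* makes calcitriol from its precursor, and *CYP24A1* breaks calcitriol and that precursor down. The steroid reductase *SRD5A1* acts on testosterone and also on GCs, whereas *SRD5A3* is known for making the dolichol on which proteins are glycosylated.

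The libraries held 6708864 to 13748598 counts with dex and 7813353 to 13619043 with EtOH. Of the 15337 genes that passed the filter on low counts, 1.06% were called in the comparison of dex with EtOH at 1 h, 14.1% at 3 h, 25% at 5 h, 28.2% at 7 h, 19.8% at 9 h and 9.12% at 11 h. A gene is called where its adjusted p does not exceed 0.1 in edgeR's quasi-likelihood F-test (Benjamini-Hochberg adjustment). The exposure was checked on 7 known targets of GCs, of which 6 were tested and all 6 were called higher at 2 or more consecutive times. One of them, *FKBP5*, a co-chaperone of the GC receptor (GR), had 374 and 342 normalized CPM (the share of a library's counts, scaled by the TMM method) with dex at 5 h and 26.0 and 27.0 with EtOH. *TSC22D3*, which encodes an anti-inflammatory leucine zipper protein, was already called at 1 h, with a log2 fold change of 3.24. The 6 markers of an epithelial carcinoma line summed to 4582 to 12364 CPM in the dex libraries and 3898 to 6290 in the EtOH libraries. The defining markers of other cells were low. In any library 3 genes of steroid-forming cells summed to at most 0.415 CPM, 2 of hepatocytes to at most 0.655 and 2 of endothelium to at most 1.06. The 4 of leukocytes summed to at most 3.71, nearly all *CD14* (mean 1.96 CPM), with *CD3E* at 0. The 4 markers of alveolar type 2 cells, the cell type A549 is often used to stand for, reached at most 1.42 CPM and *SFTPA1* was at 0. The 4 fibroblast markers, nearly all *COL1A1*, summed to 6.38 to 23.4 with dex and 11.7 to 20.6 with EtOH. The mean of *COL1A1*, 14.3 CPM, was above those of *KRT19* and *EPCAM*. Some of these markers moved with dex. Of the epithelial markers *KRT8*, *KRT18*, *KRT7* and *CDH1* were called higher at consecutive times and *EPCAM* lower, and *COL1A1* was called higher at 3 h (log2 fold change 0.57) and lower at 5, 7 and 9 h (-1.20, -1.03 and -1.35). Their part in the results below was not tested. In bulk RNA, fewer cells of a kind and less RNA per cell cannot be told apart.

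Levels can be compared between genes only per length, so counts were also expressed as TPM, which divides them by transcript length and library total. In the 12 EtOH libraries *CYP24A1* stood far above the others, at 1202 ± 130 TPM (mean ± SD over 12 libraries at 6 times). *H6PD* followed at 10.3 ± 1.05 TPM, *SRD5A1* at 9.56 ± 1.09 TPM and *SRD5A3* at 8.14 ± 1.59 TPM. With each transcript's own length, as used here, neighbours among these 3 did not differ beyond their spread. *CYP27B1* at 3.38 ± 0.823 TPM, *STS* at 2.95 ± 0.323 TPM and *CYP3A5* at 2.11 ± 0.606 TPM formed a lower tier with overlapping ranges. *HSD11B2* had 0.597 ± 0.330 TPM and *HSD11B1* 0.0274 ± 0.0648 TPM. *HSD17B2*, which oxidizes estradiol and testosterone, had 0 counts in all 24 libraries on its 6 transcripts, which allows up to 3 counts per library, or 0.218 to 0.447 CPM (counting error only). Thus 7 of the 10 enzymes had a mean of at least 1 TPM without dex. With dex, the *CYP24A1* level was 455 ± 228 TPM over 12 libraries, and *HSD11B1* ran from 0 to 7.83 TPM.

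**Figure D1:**
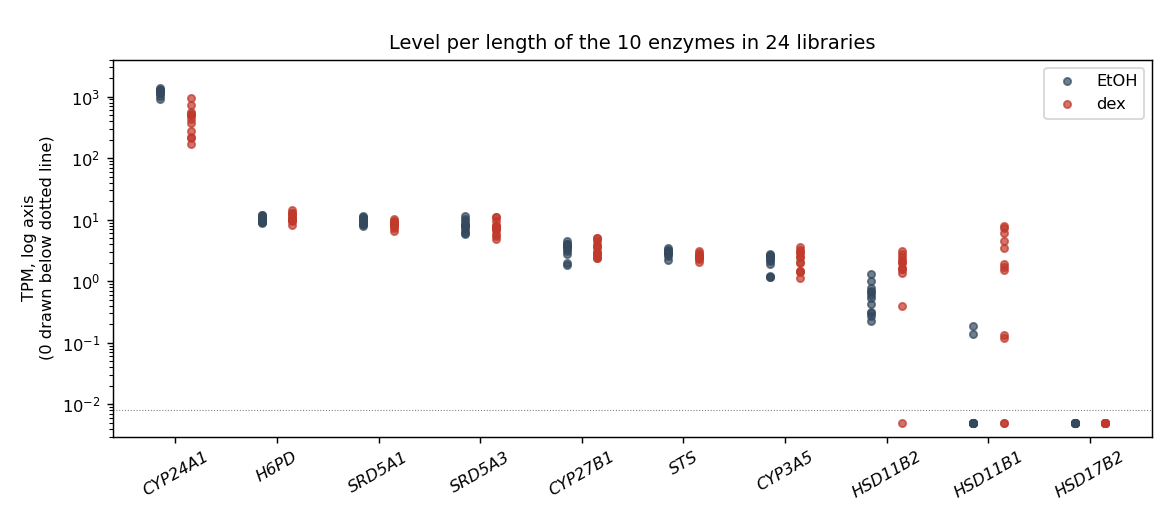
TPM of each enzyme on a log axis, with 1 point per library (12 EtOH, 12 dex) and libraries at 0 drawn below the dotted line. *CYP24A1* sits between 927 and 1405 TPM with EtOH, and *HSD11B1* is at 0 in most EtOH libraries and reaches 7.83 TPM with dex.

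*CYP24A1*, at chr20:54153449-54173973 on the minus strand (GRCh38, as for all genes here), fell at all 6 times under dex, by 1.40-fold at 1 h and by 6.63-fold at 3 h. It carries most of the counts of the 10 enzymes, 271915 over all libraries, so its values rest on 2226 to 20740 counts each. At 1 h the dex libraries had 1283 and 986 CPM, and the EtOH libraries 1685 and 1492. At 3 h they had 231 and 283 with dex, and 1720 and 1697 with EtOH. The drop between these times is thus in the dex libraries, while EtOH stayed within 1492 to 1720 CPM. At 5 h the dex libraries had 669 and 752 CPM and the EtOH libraries 1364 and 1513. At 7 h they had 768 and 661 with dex, and 1871 and 1659 with EtOH. The dex level at 5 and 7 h was therefore above that at 3 h in both libraries of each time, and still below every EtOH library. At 9 h the dex libraries had 600 and 519 CPM and the EtOH libraries 1599 and 1240. At 11 h they had 385 and 292 with dex, and 1539 and 1599 with EtOH. The groups did not overlap at any time, and the lowest EtOH value of all times, 1240 CPM, lay above every dex value except the 1283 CPM of replicate 1 at 1 h.

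The log2 fold change of *CYP24A1* was -0.49 at 1 h, with a standard error (SE) of 0.12 and an adjusted p of 0.0743 from edgeR's quasi-likelihood F-test, Benjamini-Hochberg adjusted. At that time 0.417% of all genes tested were called lower. This call was lost under several alternatives, among them DESeq2 (adjusted p = 0.104) and the fit without EtOH replicate 1 (adjusted p = 0.816, log2 fold change -0.40). At 3 h the log2 fold change was -2.73 (SE 0.11, adjusted p = 3.87e-16), where 5.65% of genes were called lower. It was -1.02 (SE 0.11, adjusted p = 1.87e-10) at 5 h and -1.29 (SE 0.08, adjusted p = 7.95e-14) at 7 h, where 12.6% and 13.5% of genes were called lower. At 9 h it was -1.32 (SE 0.14, adjusted p = 2.22e-05), beside 8.95% of genes called lower. At 11 h it was -2.20 (SE 0.16, adjusted p = 2.73e-06), beside 3.33%. From 3 to 11 h the call was kept under every alternative tried, without each library in turn included.

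The size of the change differed between times. In 1 fit over the 24 libraries, the dex effect on *CYP24A1* varied with time (adjusted p = 4.29e-07), as it did for 15.4% of all genes tested. The effect deepened by 2.25 on the log2 scale from 1 to 3 h (change of -2.25, SE 0.21, adjusted p = 2.54e-07, beside 4.88% of genes) and recovered by 1.71 from 3 to 5 h (SE 0.21, adjusted p = 1.48e-05, beside 6.94% of genes). From 5 to 7 h and from 7 to 9 h the changes of -0.29 (SE 0.21) and -0.04 (SE 0.21) were not called, the latter beside 0.0782% of genes. From 9 to 11 h the effect moved by -0.87 (SE 0.21, adjusted p = 0.0917, beside 0.685% of genes), a call that was lost in 16 of the 24 fits without 1 library, with an adjusted p of 0.343 without dex replicate 2 at 11 h. Within the dex libraries alone the time course of *CYP24A1* was called (adjusted p = 5.53e-07, beside 23.3% of genes). Within the EtOH libraries it was not (adjusted p = 0.324, beside 3.3% of genes), although it was without EtOH replicate 1 at 9 h (adjusted p = 0.0248) and without a filter on low counts (0.0441). These tests used edgeR's quasi-likelihood F-test, Benjamini-Hochberg adjusted, and those of the single steps and of the dex time course were chosen after seeing the data. The 3 transcripts of the gene took nearly equal shares of its counts with dex and with EtOH, 63.6% and 63.3% for the longest, 25.1% and 25.2% for the next and 11.3% and 11.5% for the shortest. How reads shared by these transcripts were placed is not given in the sources used here.

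**Figure D2:**
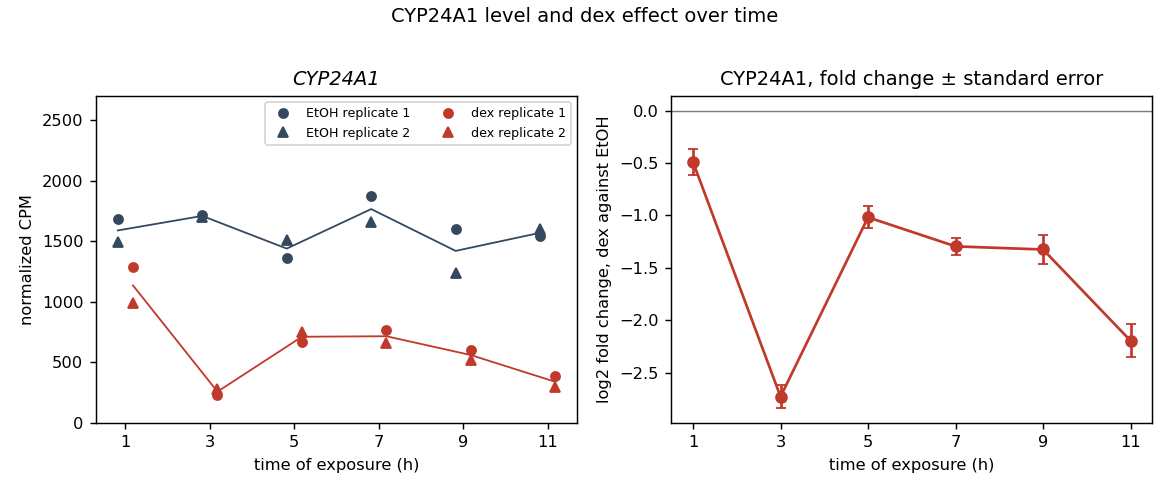
Left, *CYP24A1* in normalized CPM by hours of exposure, with circles for replicate 1, triangles for replicate 2 and lines through the means of 2 libraries. Right, its log2 fold change (dex over EtOH) ± SE from edgeR, at its lowest at 3 h (-2.73) and again low at 11 h (-2.20), with -1.02 at 5 h between them.

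*CYP27B1*, on the minus strand of chromosome 12 from 57762334 to 57768986, makes the hormone that *CYP24A1* destroys, and it was not called at any time. Its 12 EtOH libraries ran from 1.75 to 4.84 CPM with a median of 3.39, and its 12 dex libraries from 2.43 to 5.32 with a median of 3.26. The ranges overlapped widely over the course. The log2 fold changes ran from -0.31 at 1 h to 0.38 at 3 h, with SEs of 0.26 to 0.34 on 823 counts in all, so a change as large as that of *CYP24A1* at 3 h would have exceeded these errors, while differences within them were not detectable at this depth. Only at 3 h did the libraries of the groups not overlap (2.91 and 3.61 CPM with dex, 2.17 and 2.82 with EtOH), as was so for 26.6% of all genes in that direction.

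Of 11 further genes of the vitamin D pathway (receptors, activating enzymes, carriers), 7 were tested and 0 were called at 2 or more consecutive times by edgeR's quasi-likelihood F-test, beside 20.2% of all genes (10.7% higher, 9.46% lower and 0.013% both in turn). By an unadjusted p under 0.05 and by DESeq2 the count was 0 as well. The median log2 fold change of the 7 was 0.08 at 5 h, and 0.01 over all genes. The vitamin D receptor *VDR* had 3.21 and 3.69 CPM with dex and 4.42 and 4.71 with EtOH at 7 h, and its log2 fold changes ran from -0.41 at 7 h to 0.36 at 1 h with no call. *RXRA*, the partner of *VDR* on DNA, named after its values were seen, was called at 7 h alone, with 8.16 and 10.2 CPM with dex and 5.41 and 6.08 with EtOH (log2 fold change 0.66, SE 0.21, adjusted p = 0.0172 by edgeR's quasi-likelihood F-test). *CYP2R1*, which adds the first hydroxyl group to vitamin D, was called at 9 h alone, with 24.8 and 19.2 CPM with dex and 16.4 and 15.3 with EtOH (log2 fold change 0.47, SE 0.17, adjusted p = 0.0807 by edgeR's quasi-likelihood F-test). *CYP27A1*, another enzyme of that step, had too few counts to be tested, at most 0.269 CPM in a library. Among 9 textbook targets of the vitamin D receptor, of which *CYP24A1* itself is the best known and is not counted, 3 were tested, of which 1 was called higher and 1 lower at consecutive times. *THBD*, encoding the anticoagulant thrombomodulin, rose at all 6 times, from a log2 fold change of 1.06 at 1 h to 2.34 at 9 h. *SPP1*, the secreted matrix protein osteopontin, fell by 0.97 at 5 h, 0.71 at 7 h and 0.59 at 9 h on the log2 scale. *THBD* and *SPP1* thus moved in opposite directions. The third tested target, *CD14*, was not called at any time, and the activity of the vitamin D receptor was not tested.

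*HSD11B1*, the cortisol-regenerating enzyme on the plus strand of chromosome 1 from 209686178 to 209734950, was at or near 0 counts in the EtOH libraries and the early dex libraries, and it was higher with dex from 5 h on. No EtOH library held more than 1 count, and the 4 dex libraries of 1 and 3 h held 1, 0, 0 and 1 counts. At 5 h the dex libraries held 48 and 41 counts (5.24 and 4.59 CPM) and the EtOH libraries 0 and 0. At 7 h they held 32 and 28 counts (2.93 and 3.69 CPM), and the EtOH libraries 0 and 1. The highest level was thus at 5 h, and every dex library from 5 h on lay above every EtOH library. At 9 h the dex libraries held 15 and 13 counts (2.14 and 0.972 CPM), and at 11 h 14 and 11 counts (1.22 and 0.987 CPM), with 0 counts in the 4 EtOH libraries of these times.

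Against EtOH groups at 0, a fold is only a lower bound. With 3 counts over the EtOH group as the floor, *HSD11B1* was at least 35.7-fold higher at 5 h, at least 9.71-fold higher at 9 h and at least 6.31-fold higher at 11 h. These bounds take the dex counts as they are, without their counting error or the spread between libraries. At 7 h, where EtOH held 1 count, the ratio was 66.1 with an exact 95% counting interval of 11.4 to 2654. The adjusted p was 1.38e-11 at 5 h, 8.47e-08 at 7 h, 0.00323 at 9 h and 0.00904 at 11 h by edgeR's quasi-likelihood F-test, Benjamini-Hochberg adjusted, where 12.4%, 14.7%, 10.8% and 5.8% of all genes were called higher. These 4 calls were kept under every alternative in which the gene passed the filter. A filter of at least 10 counts in every library removed it. The gene passed the filter used for testing only through its dex libraries, so that it was tested at all depended on its being high there. Its dex effect could not be shown to vary with time in the fit over all libraries (adjusted p = 0.437), where both arms are near 0 at 1 and 3 h. Within the dex libraries alone the time course was called (adjusted p = 4.35e-06). Each of its 3 transcripts carried 66 to 73 of its 206 counts.

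*HSD11B1*, *H6PD* and *SRD5A3* are the called enzymes with a promoter in the RefSeq table used here, which held 6 of the 10 (GRCh38.p14, from 250 bases before to 50 bases after a start in RefSeq). These starts lie 1 base (*HSD11B1*), 5072 bases (*H6PD*) and 133 bases (*SRD5A3*) downstream of the first base of the gene in GENCODE, so the *H6PD* window lies within the gene as given below and belongs to a later start site. Their promoters are shown as a description, and a link between these letters and the timing or size of a change was not tested. Capitals mark matches, on either strand, to AGAACA (one arm of the GR palindrome), AGGTCA and AGTTCA (arms of other nuclear receptor sites), TATAAA or TGACTCA. The full GR palindrome, which contains AGAACA on both strands, and its core, which is part of it, were also searched. GGGCGG was counted but left in lower case.
HSD11B1 promoter, chr1:209685929-209686228, plus strand: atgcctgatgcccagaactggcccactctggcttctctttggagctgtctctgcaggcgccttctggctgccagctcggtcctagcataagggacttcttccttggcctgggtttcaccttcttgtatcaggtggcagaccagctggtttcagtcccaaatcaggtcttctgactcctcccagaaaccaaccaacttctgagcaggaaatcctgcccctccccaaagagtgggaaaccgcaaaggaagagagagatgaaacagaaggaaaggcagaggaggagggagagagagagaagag
H6PD promoter, chr1:9239597-9239896, plus strand: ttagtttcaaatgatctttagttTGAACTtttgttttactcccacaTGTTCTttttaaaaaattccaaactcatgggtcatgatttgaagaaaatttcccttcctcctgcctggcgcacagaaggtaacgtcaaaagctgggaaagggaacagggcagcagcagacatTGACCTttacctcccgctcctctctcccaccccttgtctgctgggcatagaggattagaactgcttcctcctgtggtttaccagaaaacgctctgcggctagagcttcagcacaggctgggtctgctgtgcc
SRD5A3 promoter, chr4:55345992-55346291, plus strand: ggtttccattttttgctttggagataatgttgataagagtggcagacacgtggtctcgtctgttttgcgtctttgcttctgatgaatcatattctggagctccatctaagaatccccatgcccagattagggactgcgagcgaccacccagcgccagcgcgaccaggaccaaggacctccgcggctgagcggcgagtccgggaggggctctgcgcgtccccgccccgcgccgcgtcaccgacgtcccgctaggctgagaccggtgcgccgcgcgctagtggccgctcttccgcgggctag
The *HSD11B1* window, the only one searched for that gene, held no match to any of the 8 motifs. On the reverse strand the *H6PD* window held AGTTCA from -227 to -222 relative to its RefSeq start, AGAACA from -204 to -199 and AGGTCA from -82 to -77, once each. The *SRD5A3* window held only GGGCGG, on the reverse strand from -31 to -26. AGAACA occurs in 14.8% of the 35116 promoters of the table, AGGTCA in 13.8%, AGTTCA in 10.4%, TATAAA in 11.5%, TGACTCA in 4.95%, GGGCGG in 45.0%, the core of the GR palindrome in 5.37% and the full palindrome in 0.00285%. These are letters in a short window and no measure of binding.

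*HSD11B2*, the cortisol-inactivating enzyme on the plus strand of chromosome 16 from 67430652 to 67437553, also rose with dex, from a low level that EtOH libraries did show. At 1 h the dex libraries held 4 and 0 counts and the EtOH libraries 3 and 3. At 3 h they held 16 and 11 with dex, and 3 and 5 with EtOH. The dex libraries were thus above EtOH from 3 h, when *HSD11B1* still held 0 and 1 counts. At 5 h the counts were 13 and 20 with dex and 1 and 5 with EtOH. At 7 h they were 20 and 6 with dex, and 6 and 7 with EtOH. Replicate 2 with dex at 7 h, at 0.792 CPM, was near the 0.590 and 0.686 CPM of EtOH. At 9 h they were 11 and 24 with dex and 5 and 5 with EtOH, and at 11 h 24 and 20 with dex and 4 and 7 with EtOH. In CPM, the dex range over 12 libraries was 0 to 2.24 with a median of 1.61, and the EtOH range 0.102 to 0.764 with a median of 0.431.

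The log2 fold change of *HSD11B2* was 0.00 at 1 h (SE 0.80), 1.80 at 3 h (SE 0.58, adjusted p = 0.0475, beside 8.42% of genes called higher) and 2.68 at 5 h (SE 0.61, adjusted p = 0.000683). At 7 h it was 1.11 (SE 0.54, adjusted p = 0.150), which was not called although the libraries did not overlap, as for 28.9% of all genes in that direction. At 9 h it was 1.85 (SE 0.49, adjusted p = 0.0238) and at 11 h 1.60 (SE 0.48, adjusted p = 0.0748). All are from edgeR's quasi-likelihood F-test, Benjamini-Hochberg adjusted. By counts, the ratio at 5 h was 6.63 with an exact 95% interval of 2.74 to 19.3, for counting error only. The call at 5 h was kept under every alternative in which the gene passed the filter. Without 1 library its log2 fold change at 5 h ran from 2.10 to 3.99, the latter without EtOH replicate 2. The call at 3 h was lost without dex replicate 1 (adjusted p = 0.378) or EtOH replicate 1 (0.208) and with counts of 1 transcript in place of the gene (0.306), that at 9 h without dex replicate 2 (0.207) and with DESeq2 (0.177), and that at 11 h without either EtOH library (0.474 and 0.203), with DESeq2 (0.396) and with counts of 1 transcript (0.132). The transcript standing for each gene was the one with the smallest combined p. A change of the dex effect over time was not called (adjusted p = 0.518). Within the dex libraries alone the time course of *HSD11B2* was called (adjusted p = 0.0542 by the same test, beside 23.3% of genes). That call was lost without dex replicate 2 at 1 h. Both *HSD11B1* and *HSD11B2* passed the filter on low counts only through their dex libraries, so that they were tested at all depended on being high there.

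**Figure D3:**
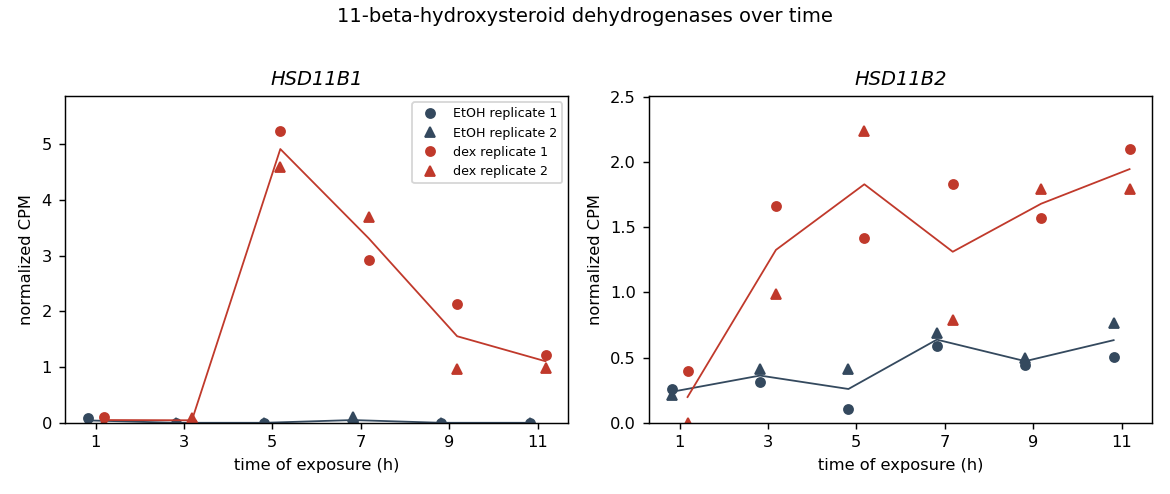
*HSD11B1* and *HSD11B2* in normalized CPM by hours of exposure, with circles for replicate 1, triangles for replicate 2 and lines through the means of 2 libraries. *HSD11B1* goes from at most 0.0902 CPM at 3 h to 5.24 and 4.59 CPM at 5 h with dex and then declines, whereas *HSD11B2* is already at 1.66 and 0.992 CPM at 3 h and stays between 0.792 and 2.24 CPM.

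*H6PD*, the NADPH source of *HSD11B1* on the plus strand of chromosome 1 from 9234775 to 9271337, changed little. The call was at 7 h alone, where the dex libraries had 42.2 and 51.3 CPM and the EtOH libraries 37.2 and 35.5. At that time 14.7% of all genes were called higher. The log2 fold change of *H6PD* there was 0.36 (SE 0.11, adjusted p = 0.0123 by edgeR's quasi-likelihood F-test, Benjamini-Hochberg adjusted). It was lost without dex replicate 2 (adjusted p = 0.335, log2 fold change 0.22), with DESeq2 (0.109) and in 1 fit over 24 libraries (0.133). At 5 and 9 h the dex libraries were above both EtOH libraries without a call, as for 28% and 26.4% of all genes. They had 51.1 and 43.1 against 39.4 and 41.7 CPM at 5 h, and 45.0 and 43.3 against 41.3 and 39.2 CPM at 9 h. At 11 h its 2 dex libraries stood on either side of EtOH, at 38.5 and 57.7 CPM against 44.6 and 45.5 CPM. Without dex replicate 1 at 11 h the log2 fold change of that time was 0.38 and was called (adjusted p = 0.0080).

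*CYP3A5*, on the minus strand of chromosome 7 from 99648194 to 99680026, hydroxylates cortisol and many drugs, and had no call at any time. At 5 h it had 2.95 and 3.02 CPM with dex and 2.05 and 1.42 with EtOH, and at 9 h 2.14 and 2.54 with dex and 1.16 and 1.3 with EtOH. At both times the dex libraries lay above the EtOH libraries, as for 28% and 26.4% of all genes. The log2 fold changes of 0.80 (SE 0.35, adjusted p = 0.106) and 0.97 (SE 0.37, adjusted p = 0.107) stood just outside the threshold of edgeR's quasi-likelihood F-test, Benjamini-Hochberg adjusted. Under a filter of at least 10 counts in every library both were called (adjusted p = 0.0806 and 0.0913). At 1, 3, 7 and 11 h the log2 fold change lay between -0.20 and -0.05 with SEs of 0.35 to 0.41. The gene rests on 524 counts over 24 libraries, and the near-identical *CYP3A* genes can share reads with it.

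Of the enzymes of androgens, *SRD5A1*, on the plus strand of chromosome 5 from 6633343 to 6674386, was not called at any time. Its EtOH libraries ran from 16.2 to 22.1 CPM (median 18.8) and its dex libraries from 14.0 to 21.9 (median 18). The lowest values were those with dex at 1 and 11 h, in replicate 2 of each. At 1 h both dex libraries, with 17.7 and 14.0 CPM, lay below the EtOH libraries, with 21.2 and 22.1 CPM, as for 16.8% of all genes, and at 3 h the order was the same (25.1% of all genes). The log2 fold change of -0.44 (SE 0.17) had an adjusted p of 0.538 by edgeR's quasi-likelihood F-test, Benjamini-Hochberg adjusted, and of 0.0725 without dex replicate 1. From 3 h on the log2 fold changes lay between -0.15 and 0.09.

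*SRD5A3*, on the plus strand of chromosome 4 from 55346109 to 55373096, was called lower at 7 h, as were 13.5% of all genes. It had 6.42 and 8.31 CPM with dex and 11.0 and 9.31 with EtOH. The log2 fold change was -0.48 (SE 0.19, adjusted p = 0.0745 by edgeR's quasi-likelihood F-test, Benjamini-Hochberg adjusted), and it was lost without dex replicate 1 (adjusted p = 0.537, log2 fold change -0.28), dex replicate 2 (0.106) or EtOH replicate 1 (0.328). It was also lost with DESeq2 (0.367), in 1 fit over 24 libraries (0.110) and with counts of 1 transcript (0.1001, log2 fold change -1.13). At 3 h the dex libraries lay above EtOH instead, as for 26.6% of all genes, with 9.97 and 9.65 CPM against 8.06 and 7.63. The log2 fold change of 0.33 (SE 0.19) at that time was not called. *STS*, on the plus strand of chromosome X from 7219456 to 7354810, frees steroids from their sulfates. Its dex libraries ran from 6.99 to 10.7 CPM with a median of 8.67, and its EtOH libraries from 7.34 to 11.6 with a median of 10.0. The dex libraries lay below those with EtOH at 5, 7 and 11 h, as for 27.7%, 29.8% and 23.6% of all genes. The log2 fold changes there were -0.34 (SE 0.21), -0.25 (SE 0.18) and -0.25 (SE 0.21), none called, and the lowest adjusted p was 0.280 at 5 h.

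**Figure D4:**
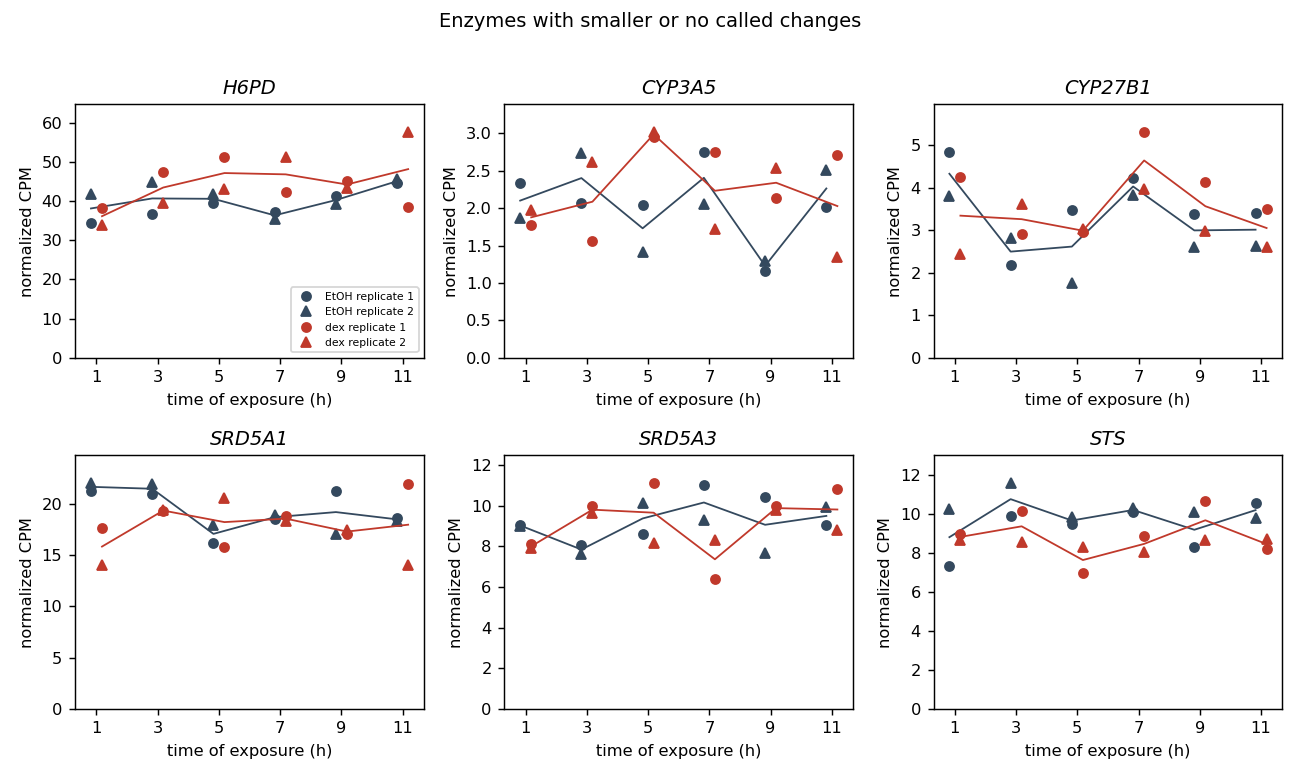
Normalized CPM by hours of exposure for the 6 other enzymes with counts, with circles for replicate 1, triangles for replicate 2 and lines through the means of 2 libraries. The only calls are *H6PD* and *SRD5A3* at 7 h, and *CYP3A5* has its dex libraries above EtOH at 5 and 9 h.

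Set by time, the called enzymes numbered 0 higher (0.639% of all genes) and 1 lower (0.417%) at 1 h among the 9 tested. They numbered 1 higher (8.42%) and 1 lower (5.65%) at 3 h, 2 (12.4%) and 1 (12.6%) at 5 h, and 2 (14.7%) and 2 (13.5%) at 7 h. At 9 h they were 2 (10.8%) and 1 (8.95%), and at 11 h 2 (5.8%) and 1 (3.33%). DESeq2 called 0 higher at 3 h, 2 at 5 h and 1 each at 7, 9 and 11 h, and 1 lower at each of these times. The enzyme that was lower at each time was *CYP24A1*, joined by *SRD5A3* at 7 h. At 1 h DESeq2 called 0 in either direction, and by an unadjusted p under 0.05 there were 0 higher and 2 lower, *CYP24A1* and *SRD5A1*. No enzyme had its dex libraries above the EtOH libraries at 1 h, as 17.8% of all genes did, and *HSD11B1* and *HSD11B2* did at 11 h, as did 22.3%. At 7 h the enzymes called higher were *HSD11B1* and *H6PD*, since *HSD11B2* missed the threshold, and at the other times from 5 h on they were *HSD11B1* and *HSD11B2*. Because *HSD11B1* and *HSD11B2* passed the filter only through their dex libraries, the counts called higher depended on that filter.

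Other genes that act on steroids were counted by list. Of 14 other hydroxysteroid dehydrogenases 11 were tested, and 2 were called higher at 2 or more consecutive times and 0 lower (beside 10.7% and 9.46% of all genes, as for each list that follows), with a median log2 fold change of 0.24 at 5 h. Both, *HSD17B4* of peroxisomal fatty acid oxidation and *HSD17B11*, which oxidizes androgen metabolites, changed by at most 0.38 on the log2 scale at any time. With DESeq2 neither was called at consecutive times. Of 13 steroid-forming P450 enzymes and their redox partners 6 were tested and 4 were called higher at consecutive times, 0 lower (median 0.49 at 5 h), and 3 were with DESeq2. At 9 h 0 were called higher and 2 lower (beside 10.8% and 8.95% of all genes), *FDXR* (-0.62) and *STARD3* (-0.37), named after their values were seen. The mean of *STARD3* was 46.6 CPM with EtOH at 9 h and 29.2 at 7 h, and 35.4 and 35.6 with dex. Its time course within EtOH was called (adjusted p = 0.0827 by edgeR's quasi-likelihood F-test, beside 3.3% of genes). The enzymes of steroid synthesis themselves had too few counts, and the 4 were the electron carriers *POR*, *CYB5R3*, *FDX1* and *CYB5A*, the latter pair named after their values were seen. *POR*, which passes electrons to microsomal P450 enzymes including *CYP3A5*, rose by 0.99 on the log2 scale at 5 h (SE 0.12, adjusted p = 8.28e-09 by edgeR's quasi-likelihood F-test) and by 1.11 at 7 h (SE 0.11). Its EtOH mean was 38.8 CPM at 5 h, 25.2 at 7 h and 40.5 at 9 h, and its time course within EtOH was called (adjusted p = 0.0817 by the same test). *CYB5R3*, which reduces cytochrome b5, rose by 0.65 at 5 h (SE 0.13) and 0.69 at 7 h (SE 0.11).

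Of 10 aldo-keto reductases and retinol or steroid reductases 7 were tested, 1 was called higher and 2 lower (median 0.08 at 5 h). *DHRS9*, which oxidizes retinol and steroids, rose by 1.87 at 3 h (SE 0.59) from at most 0.332 CPM, with too few counts for DESeq2 to give an adjusted p at that time. Like *HSD11B1*, it reached 1 CPM only in dex libraries and passed the filter through them. *RDH10*, which oxidizes retinol, fell by 0.98 at 5 h (SE 0.14), and the other was *AKR1C3*, named after its values were seen, a member of a near-identical family whose counts can share reads. Of 15 genes of sulfation and glucuronidation 9 were tested, 0 were called higher and 1 lower (median 0.02 at 5 h). That gene was *PAPSS2*, which makes the sulfate donor, and it fell by 0.73 at 5 h (SE 0.15). In the *CYP3A* family and its receptors 2 of 6 were tested (median 0.84 at 5 h). Both were nuclear receptors, since no *CYP3A* gene of this list had enough counts to be tested. Of these receptors 1 was called higher at 5 h alone (beside 12.4% of all genes). At consecutive times 0 were called by edgeR's quasi-likelihood F-test, by an unadjusted p under 0.05 or by DESeq2.

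Of 6 steroid receptors 3 were tested, 0 were called higher and 1 lower (median -0.15 at 5 h). *NR3C1*, which encodes GR, fell by 0.61 at 3 h (SE 0.09, adjusted p = 3.14e-05 by edgeR's quasi-likelihood F-test), 0.44 at 9 h and 0.50 at 11 h on the log2 scale. The mineralocorticoid receptor *NR3C2*, which *HSD11B2* shields from cortisol in the kidney, held at most 0.264 CPM in a library and was not tested. Of 9 genes of NADPH supply all 9 were tested, 1 was called higher and 1 lower at consecutive times (median -0.10 at 5 h). By single times 4 were called higher and 0 lower at 3 h (beside 8.42% and 5.65% of all genes). At 9 h 0 were called higher and 3 lower (beside 10.8% and 8.95%). Within EtOH alone the time courses of *PGD* and *TALDO1*, named after their values were seen, were called (adjusted p = 0.0294 for each by edgeR's quasi-likelihood F-test, beside 3.3% of genes). *IDH1* rose by 0.42 at 5 h (SE 0.10) and *ME1* fell by 0.39 at 7 h (SE 0.08), and both make NADPH in the cytosol. With DESeq2 neither was called at consecutive times.

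The genes whose log2 CPM over the 12 group means was most like that of an enzyme called at consecutive times were listed among 14019 genes with a mean of at least 1 CPM. For *CYP24A1* they were *TLR6* (Pearson r = 0.980, Spearman rho = 0.937), *DUSP4* (r = 0.975, rho = 0.867) and *TRIM6* (r = 0.975, rho = 0.923). For *HSD11B1* they were *TGM2* (r = 0.987, rho = 0.747), *MPRIP* (r = 0.981, rho = 0.840) and *LTBP1* (r = 0.977, rho = 0.698). For *HSD11B2* they were *VIPR1* (r = 0.967, rho = 0.909), *ABCA7* (r = 0.959, rho = 0.923) and *PROSER2* (r = 0.955, rho = 0.888). The points are the same 12 groups for every gene and share their libraries, so these values are a description.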

How the data were processed

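The deposited values are read counts per transcript. The libraries were stranded and poly-A selected. The authors aligned 50-base single-end reads to the GENCODE transcriptome using Bowtie and took counts from samtools, and the submitters' processing notes name the build hg19. The counts were not normalized. How reads matching several transcripts were placed, and the use of strand in counting, are not given in the sources used here. The paper's text states triplicates, while the labels give 2 replicates.

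Transcripts were joined by identifier to GENCODE release 29 on GRCh38 (110262 of 119207, with 94.1% of the counts) and summed per gene. Genes kept by edgeR's filterByExpr over 12 groups were tested with edgeR 4.0.16 in R 4.3.3 (TMM scaling, robust quasi-likelihood F-test, Benjamini-Hochberg adjustment, threshold 0.1), 2 dex against 2 EtOH libraries at each time. Tests over time used 1 fit of the libraries involved. Each standard error is the log2 fold change over the root of its F statistic. Normalized CPM uses TMM library sizes, and TPM divides each transcript's count by its GENCODE length. Between 6708864 and 13748598 counts per library set the precision, and the variation between replicates was 6.49% to 12.7%. On simulated data with 15337 genes, 72% of 2-fold and 96% of 4-fold changes were recovered for dex against EtOH at 5 h. Of 175 calls there, 4% were false. For the change of the dex effect over time, 73% and 94% were recovered, and 11.6% of 189 calls were false. For the time course in EtOH, 91% and 97% were recovered, and 8.74% of 206 calls were false. Whether these rates hold for the measured data, low counts included, was not tested.

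The enzymes and lists were chosen with earlier results of these data known. Named besides them are the genes of each list with the largest mean absolute log2 fold change among those called at 2 or more consecutive times (2 per list), *NR3C1*, *NR3C2*, *VDR*, *CYP2R1*, *CYP27A1*, *FKBP5* and *TSC22D3*, and the 3 genes most like each enzyme called at consecutive times. Another gene fixed by name is not reported here. Alternatives were transcript counts, DESeq2 1.42.0, its size factors, no filter, at least 10 counts in every library, a threshold of 0.05, the replicate number as a block, all 24 libraries in 1 fit, transcripts without a gene kept, the longest transcript's length for TPM, and each library left out. The step and dex time-course tests were added after seeing the data.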

Additional observations from a re-analysis of the deposited data

Results flagged for a closer look

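The effect of dex differed between times for 9 of the enzymes and genes named by rule, markers left aside. This was tested in 1 fit over 24 libraries (edgeR's quasi-likelihood F-test, Benjamini-Hochberg adjusted), where 15.4% of all genes tested were called. Also called, but not among the 9, were *CYB5A* (adjusted p = 0.000190), *TALDO1* (0.00154) and the markers *KRT8*, *KRT18*, *KRT19*, *KRT7*, *CDH1* and *COL1A1*. For *CYP24A1* the adjusted p was 4.29e-07, with the lowest dex level at 3 h. For *FKBP5* it was 2.77e-15, with a log2 fold change of 0.51 at 1 h and 4.16 at 9 h, and for *TSC22D3* 0.000123, with 3.24 at 1 h and 4.50 at 5 h. For *THBD* it was 5.74e-07, with 1.06 at 1 h and 2.34 at 9 h. For *SPP1* it was 5.95e-05 and for *RDH10* 9.65e-05, both lower at 5 h (log2 fold changes of -0.97 and -0.98) and not called at 11 h (-0.12 and -0.17). For *IDH1* it was 0.00896, with 0.42 at 5 h and -0.21 at 11 h. For *CYB5R3* it was 0.0955 and for *ME1* 0.0976, both just inside the threshold of 0.1.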

How the results depend on the processing

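The calls of *CYP24A1* from 3 to 11 h, of *HSD11B1* from 5 to 11 h and of *HSD11B2* at 5 h were kept under all alternatives that gave them a value, and no call turned its direction in any alternative. The *CYP24A1* call at 1 h, the *HSD11B2* calls at 3, 9 and 11 h, and those of *H6PD* and *SRD5A3* at 7 h were each lost in some, and 2 libraries per group limit what can be said of them. DESeq2 gave no adjusted p for *HSD11B2* at 1, 3 and 7 h. Counts of genes called, 162, 2159, 3834, 4324, 3033 and 1399 at 1 to 11 h, became 247 without a filter at 1 h, 1208, 2348, 2464 and 1831 with DESeq2 at 3, 5, 7 and 9 h, and 2478 in 1 fit over 24 libraries at 11 h. Leaving out 1 library moved them to between 88 and 691 at 1 h, 1290 and 2598 at 3 h, 2756 and 3333 at 5 h, 2006 and 4821 at 7 h, 1056 and 5297 at 9 h (5297 without EtOH replicate 1) and 720 and 4978 at 11 h (4978 without dex replicate 1). Genes whose dex effect varied with time, 2360, became 1654 to 3968, those varying within dex, 3574, 2636 to 6461 (3968 and 6461 without dex replicate 1 at 11 h), and those varying within EtOH, 506, 12 to 2036 (12 without replicate 1 at 7 h and 2036 without replicate 1 at 9 h), 1784 without a filter and 124 at a threshold of 0.05. The causes were not tested. The study's design names a paired vehicle control, but no label ties a replicate number to a shared culture or day, and same-numbered libraries did not deviate together at every time (correlation of same-numbered deviations -0.09 to 0.19 over the 6 times), and with the number as a block there were 583 calls at 1 h. The block called *SRD5A1* at 1 h (adjusted p = 0.0628) and *CYP3A5* at 9 h (0.0881), and ended no call of an enzyme at any time. With the longest transcript's length, EtOH levels were 11.8 TPM for *H6PD*, 7.35 for *SRD5A1*, 5.90 for *SRD5A3* and 4.05 for *STS*, which then lay above *CYP27B1* (3.45). By that length the EtOH ranges of *H6PD* (10.3 to 13.6 TPM) and *SRD5A1* (5.99 to 8.40) did not overlap. Nor did those of *STS* (3.08 to 4.79) and *CYP3A5* (0.971 to 2.22). Depth limits *HSD11B1* (at most 48 counts per library), *HSD11B2* (24) and *CYP3A5* (34).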
